A study of Mus musculus with 24 samples.

Results

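The genes of the proteasome, the complex that breaks down proteins tagged with ubiquitin, were followed through 4 states of mouse CD4 T cells. They were taken by symbol, as every row of the count tables that starts with Psm, a letter from a to g and a number, without pseudogenes. This gave 49 of the 23420 gene rows. Of these 49, 48 encode parts, activators, regulators or assembly factors of the proteasome, and Psmc3ip, a partner of meiotic recombination proteins that shares only the start of its symbol, is described apart. All but Psmb11 of the 48 had enough counts to be tested, so 47 genes carry a test. Psma8, a form of the testis, passed the filter on low counts through its TH1 libraries alone and so had to differ from naive cells. Counts of members are therefore also given without it, over 46 genes.

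RNA was sequenced from sorted cells of OT2Nur77GFP+/- mice on a C57/BL6 background. They descend from mice with the reporter Tg(Nr4a1-EGFP/cre)820Khog, in which the promoter of the receptor-response gene Nr4a1 (Nur77) drives a green fluorescent protein, and from mice with Tg(TcraTcrb)425Cbn, the OT-II receptor chains that recognise an ovalbumin peptide. All 4 groups carried both transgenes and held 6 libraries each, numbered 1 to 6. Naive cells were from spleens, and activated naive cells were stimulated for 6 hours with a stimulus that the labels used here do not name. TH1 effector cells were differentiated from naive cells for 5 days, and reactivated TH1 cells were then exposed to macrophages pulsed with antigen for 6 hours. No group of TH1 cells with macrophages that lacked antigen is among the 4 groups, so antigen and contact with macrophages cannot be told apart there. The age and sex of the mice, and whether each library stands for an animal of its own, were not stated in the labels, so p-values measure only the spread between these libraries.

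The proteasome is a barrel, the 20S core, capped by a 19S regulator. The core stacks outer rings of alpha subunits (Psma genes) on inner rings of beta subunits (Psmb genes), and in its constitutive form the subunits encoded by Psmb6, Psmb7 and Psmb5 carry the beta 1, beta 2 and beta 5 active sites that cut proteins. In lymphocytes, and in other cells under interferon gamma, newly built cores take up Psmb9, Psmb10 and Psmb8 at these places. The resulting immunoproteasome is known for making peptides that fit MHC class I molecules and for a role in the activation and survival of T cells. The 19S regulator consists of a base with a ring of ATPases (Psmc genes) that unfold proteins and a lid (most Psmd genes) that holds the enzyme that removes ubiquitin. PA28 caps (Psme1 with Psme2, or Psme3 alone) and PA200 (Psme4) open the core without ubiquitin, and dedicated chaperones (Psmg1 to Psmg4 for the core, Psmd5, Psmd9 and Psmd10 for the base) help to put the parts together.

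The tables held 18457653 to 34262645 counts given to genes per library, and no pair of libraries of a group agreed within sampling noise. Sequencing took 2 runs, and each group had 3 libraries in either run. Levels are given as CPM, counts in each 1000000 after scaling of each library with TMM factors. The labelled cell type was checked with 9 T cell markers (among them Cd3e, Cd4 and Lck), which summed to between 3454 and 5731 CPM in each library. Markers of macrophages, 14 genes with a row in the tables, summed to between 15.73 and 22.14 CPM in reactivated TH1 libraries, against 4.699 to 6.749 in TH1 effector, 8.021 to 12.65 in naive and 10.14 to 12.01 in activated naive libraries. None of the 14 was without counts in reactivated TH1 libraries, where Lyz2 averaged 5.984 and Csf1r 0.7237 CPM, whereas Csf1r, C1qa, C1qb, C1qc, Fcgr1 and Msr1 had none in TH1 effector libraries. The part of macrophage RNA in the values of reactivated TH1 cells was not tested. Markers of B cells (7 genes) reached 23.07 CPM in 1 TH1 effector library, and markers of dendritic cells (7 genes) summed to at most 10.71 CPM and of CD8 and NK cells (5 genes) to at most 30.76 CPM in any library. In bulk RNA, fewer cells of a type and less RNA per cell cannot be told apart, and CPM gives shares of the RNA, not amounts per cell.

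Proteasome genes as a whole took a larger share of the counts in stimulated than in resting cells. Their 48 levels summed to a median of 4192 CPM for naive (lowest library 3980, highest 4323), 8208 for activated naive (7773 to 8472), 6216 for TH1 effector (5915 to 6426) and 8781 CPM for reactivated TH1 libraries (8093 to 9181). The naive libraries lay lowest and the TH1 effector libraries next, without overlap, and the ranges of the stimulated groups overlapped each other. As shares these were 0.419% ± 0.0126 of the counts for naive, 0.817% ± 0.0252 for activated naive, 0.620% ± 0.0188 for TH1 effector and 0.872% ± 0.0461 for reactivated TH1 libraries (mean ± SD, n = 6). The 3 immunoproteasome genes went the other way. They summed to a median of 610.2 CPM for naive, 166.2 for activated naive, 815 for TH1 effector and 324.6 CPM for reactivated TH1 libraries, and no library of a stimulated group came near its resting group.

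Promoter letters are shown for active-site genes other than Psmb7 and for Psme3, the gene with the largest rise on activation among members of at least 10 CPM. Each printed stretch was picked to hold a motif match. Stretches upstream of the RefSeq start site (GRCm38.p6) are printed 5′ to 3′ on the strand of the gene, with motif matches in capitals. The first lines show Psmb5 (chr14:54618026-54618145, minus strand) and Psmb6 (chr11:70525237-70525356, plus strand), with a match to the antioxidant response element TGACNNNGC in capitals, the kind of element that NRF1 and NRF2 bind. Psmb10 (chr8:105938448-105938567, minus strand) follows with an E-box CACGTG. Psme3 (chr11:101316093-101316212, plus strand) has an E-box and, on the other strand, a CCAAT box, read here as ATTGG. The short stretches of Psmb8 (chr17:34198089-34198115, plus strand) and Psmb9 (chr17:34187331-34187350, minus strand) hold a match to the GAS element TTCNNNGAA, named for gamma interferon activation, and a CCAAT box on the other strand. Both lie within the GENCODE M21 span of their gene, upstream of the RefSeq start.
Psmb5: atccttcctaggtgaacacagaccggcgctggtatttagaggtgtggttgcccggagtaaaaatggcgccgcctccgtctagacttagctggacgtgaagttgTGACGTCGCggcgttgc
Psmb6: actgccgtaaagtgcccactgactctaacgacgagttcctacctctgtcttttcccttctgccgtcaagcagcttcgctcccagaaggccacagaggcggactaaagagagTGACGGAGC
Psmb10: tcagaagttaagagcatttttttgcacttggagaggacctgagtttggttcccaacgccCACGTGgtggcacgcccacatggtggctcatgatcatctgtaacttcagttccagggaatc
Psme3: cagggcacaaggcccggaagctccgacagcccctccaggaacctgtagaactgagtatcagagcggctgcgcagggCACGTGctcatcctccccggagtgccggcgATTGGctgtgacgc
Psmb8: cctccgctgTTCCCAGAAgatgccccc
Psmb9: gcgcagccgctgATTGGaaa

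A promoter window of 300 bases (250 before the start site and 50 after it) was given for 40 of the 48 genes and for 27025 genes in all. Both strands were searched, and no match of one motif overlapped a match of another in the members. The antioxidant response element matched in 15% of the members (Psmb5, Psmb6, Psmc6, Psmd9, Psmd12 and Psme4) and 14.0% of all windows, and the CCAAT box in 35.0% and 41.1%. An E-box was found in 10.0% of the members against 8.09% of all windows, and the GAS letters in 7.5% against 9.55%. The interferon-stimulated response element (ISRE) matched in 12.5% of the members (Psmb3, Psmd4, Psmd9, Psme1 and Psmg4) and 3.99% of all windows, and in none of the 3 immunoproteasome windows. The windows of Psmb8 and Psmb9 lie wholly within the GENCODE M21 span of their gene, so sequence upstream of that span was not searched. All motif results are matches of letters and no measure of binding.

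Activation of naive cells raised nearly all proteasome genes and lowered the 3 immunoproteasome genes. Of the 47 tested members, 43 rose and 3 fell (Psmb8, Psmb9 and Psmb10), or 42 and 3 of 46 without Psma8. Among all 12584 genes tested, 41.3% rose and 40.5% fell in the same comparison (edgeR's quasi-likelihood test, adjusted p under 0.05). Without Psma8, at least 1.5-fold changes were seen for 36 members upwards and 3 downwards, against 30.6% and 31.2% of all genes. The median log2 fold change was 1.07 over the 46 members and 0.00464 over all genes. In 41 of the 46 all 6 activated naive libraries lay above all 6 naive libraries, and in the 3 immunoproteasome genes all lay below, against 33.3% and 33% of all genes. Psmd5, a chaperone of the 19S base, was the tested gene without a call (log2 fold change 0.10).

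Among the inducible active sites Psmb8, the beta 5i subunit gene (chromosome 17, 34197721 to 34201454 in GRCm38), ran from 307.1 over a median of 326.6 to 375.9 CPM in naive libraries and from 97.53 over 111.1 to 128.7 in activated naive libraries. The groups lay far apart, and Psmb8 fell by 1.54 on the log2 scale (2.92-fold, SE 0.076, edgeR adjusted p = 2.8e-16). Psmb9, the beta 1i subunit gene next to it (34181987 to 34187764, on the other strand and 9956 bases away), had 118.1, 136.4 and 153.5 CPM as lowest, median and highest naive value and 28.15, 36.84 and 39.75 in activated naive libraries. It fell by 1.96 (3.89-fold, SE 0.090, adjusted p = 3.8e-17). Psmb10, the beta 2i subunit gene (chromosome 8, 105935735 to 105938444), went from 120.3, 147.6 and 153.9 CPM to 17.63, 22.34 and 28.73. This was the largest fall among the members (log2 −2.67, 6.34-fold, SE 0.10, adjusted p = 8.79e-19), and again no library of the stimulated group reached the resting range.

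The constitutive partners at the same sites moved the other way. Psmb5 (chromosome 14, 54614119 to 54618022) had 19.11, 23.49 and 25.52 CPM as lowest, median and highest naive value and 49.10, 57.63 and 66.50 in activated naive libraries, a 2.54-fold rise (log2 1.34, SE 0.065, edgeR adjusted p = 4.28e-16). Psmb6 (chromosome 11, 70525367 to 70527858) went from 59.94, 69.19 and 73.20 CPM to 149.1, 169 and 181.2 (2.43-fold, log2 1.28, SE 0.052, adjusted p = 1.98e-17). In each of them the lowest activated library was well above the highest naive one. Psmb7 (chromosome 2, 38588036 to 38644087) rose from 50.69, 54.37 and 57.59 CPM to 136.5, 142.7 and 150.4 (2.63-fold, log2 1.39, SE 0.042, adjusted p = 1.82e-19). These 3 rises were of like size, between 1.28 and 1.39 on the log2 scale, while the 3 falls ran from 1.54 to 2.67.

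**Figure D1:**
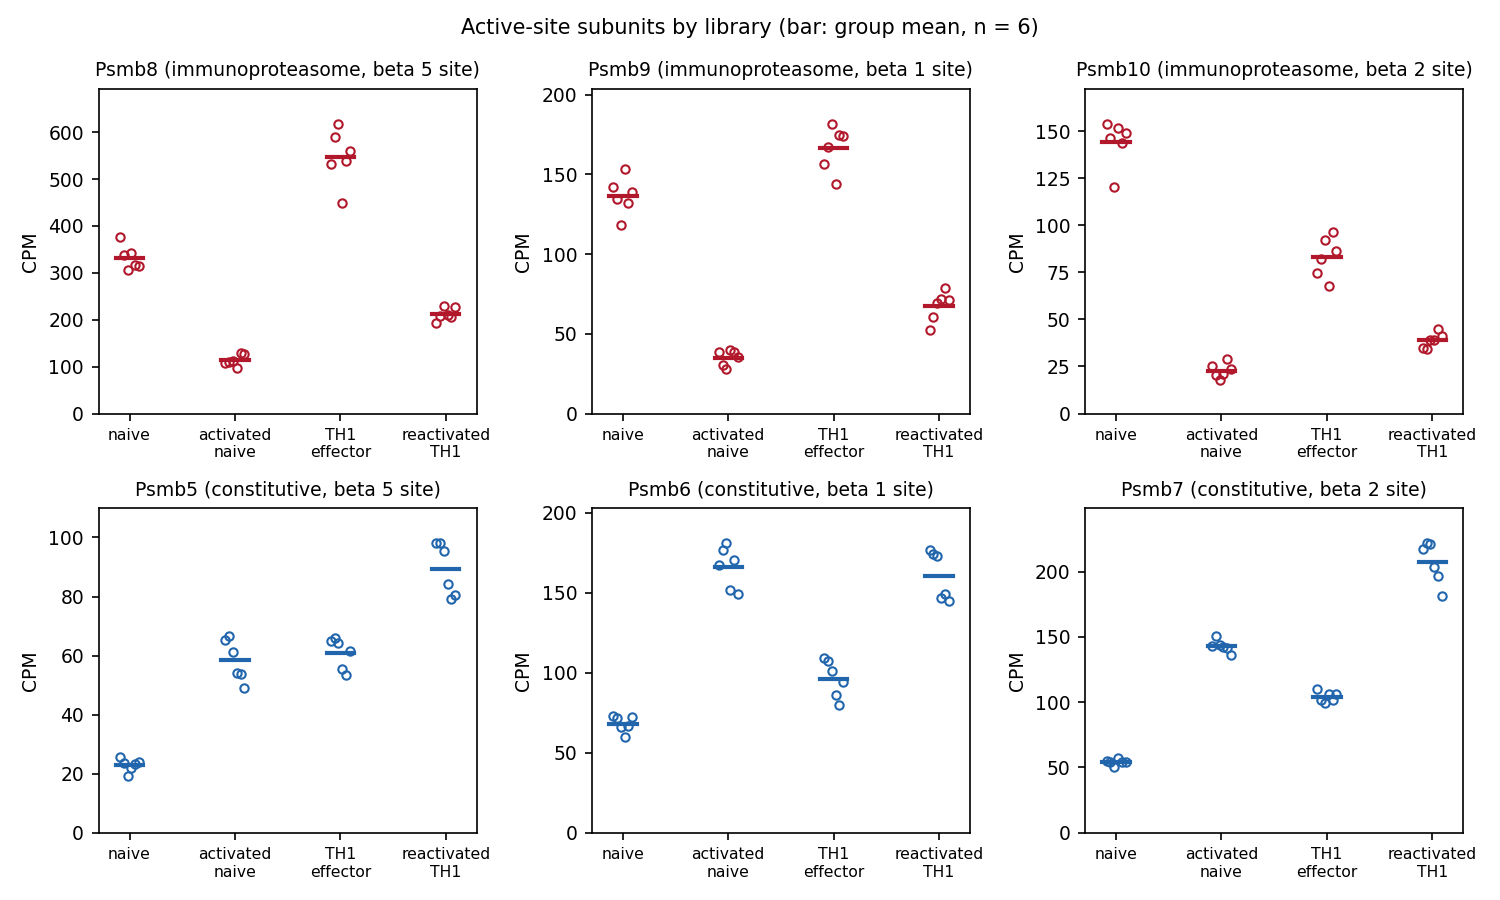
Level of each active-site subunit gene in CPM by group, with 1 point per library and a bar at the mean of 6 libraries, each panel with its own axis from 0. In the upper panels Psmb8, Psmb9 and Psmb10 are lower in both stimulated groups than in the resting group they came from, and in the lower panels Psmb5, Psmb6 and Psmb7 are higher.

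All other genes of the rings and the 19S regulator rose on activation, by unequal amounts. All 7 alpha subunit genes rose, by 0.63 (Psma2) to 1.58 (Psma5) on the log2 scale with a median of 1.27. Of the beta genes without an active site Psmb1 moved least, from a median of 123.5 to 144.7 CPM (log2 0.23, SE 0.030), and Psmb2 most, from 54.68 to 134.4 CPM (1.31, SE 0.047). The naive libraries of Psmb1 (119 to 128.3 CPM) still lay below all of its activated ones (140.5 to 150.2). With scaling by library size alone the call of Psmb1 was lost (adjusted p = 0.118). All 6 ATPase genes of the 19S base rose, from 0.75 for Psmc3 to 1.71 for Psmc5. Psmd1, the scaffold of the base, rose more than any other 19S gene, from 78.32, 83.36 and 90.78 CPM to 316.9, 346.4 and 361.1 (4.09-fold, log2 2.03, SE 0.060, adjusted p = 1.54e-20). Psmd4, a ubiquitin receptor of the base, rose by 0.47. In the lid all 8 genes rose, by 0.74 (Psmd13) to 1.67 (Psmd11), with Psmd14, the enzyme that removes ubiquitin, at 1.34.

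Activators and chaperones did not move as 1 block. Psme3, the PA28 gamma subunit of the nucleus (chromosome 11, 101316213 to 101323537), ran from 120.9 over a median of 129.6 to 130.9 CPM in naive libraries and from 656.2 over 713.6 to 737.9 in activated naive libraries. It was 5.48-fold higher (log2 2.46, SE 0.035, edgeR adjusted p = 2.15e-24), the largest rise among members of at least 10 CPM. The interferon-inducible PA28 alpha and beta genes, Psme1 and Psme2, which lie 5911 bases apart on chromosome 14 (55578123 to 55581529 and 55587441 to 55591113), rose less. Psme1 had 309.4, 333.9 and 392.6 CPM as lowest, median and highest naive value and 560.5, 609.6 and 647.8 in activated naive libraries (1.77-fold, log2 0.82, SE 0.057, adjusted p = 1.15e-12). Psme2 went from 195.6, 216.4 and 237.9 to 368.2, 380.3 and 413.3 CPM (1.78-fold, log2 0.83, SE 0.056, adjusted p = 5.48e-13). So these interferon-inducible genes rose where Psmb8, Psmb9 and Psmb10 fell. Psme4, the PA200 gene, rose by 0.28 and Psmf1, which encodes the inhibitor PI31, by 0.39. The 4 chaperones of the core rose by 0.82 (Psmg2) to 1.22 (Psmg4), and those of the base less, by 0.18 for Psmd10 and 0.48 for Psmd9. Besides the test against a minimum change, 7 alternative fits lost the call of Psmd10, among them scaling by library size alone.

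**Figure D2:**
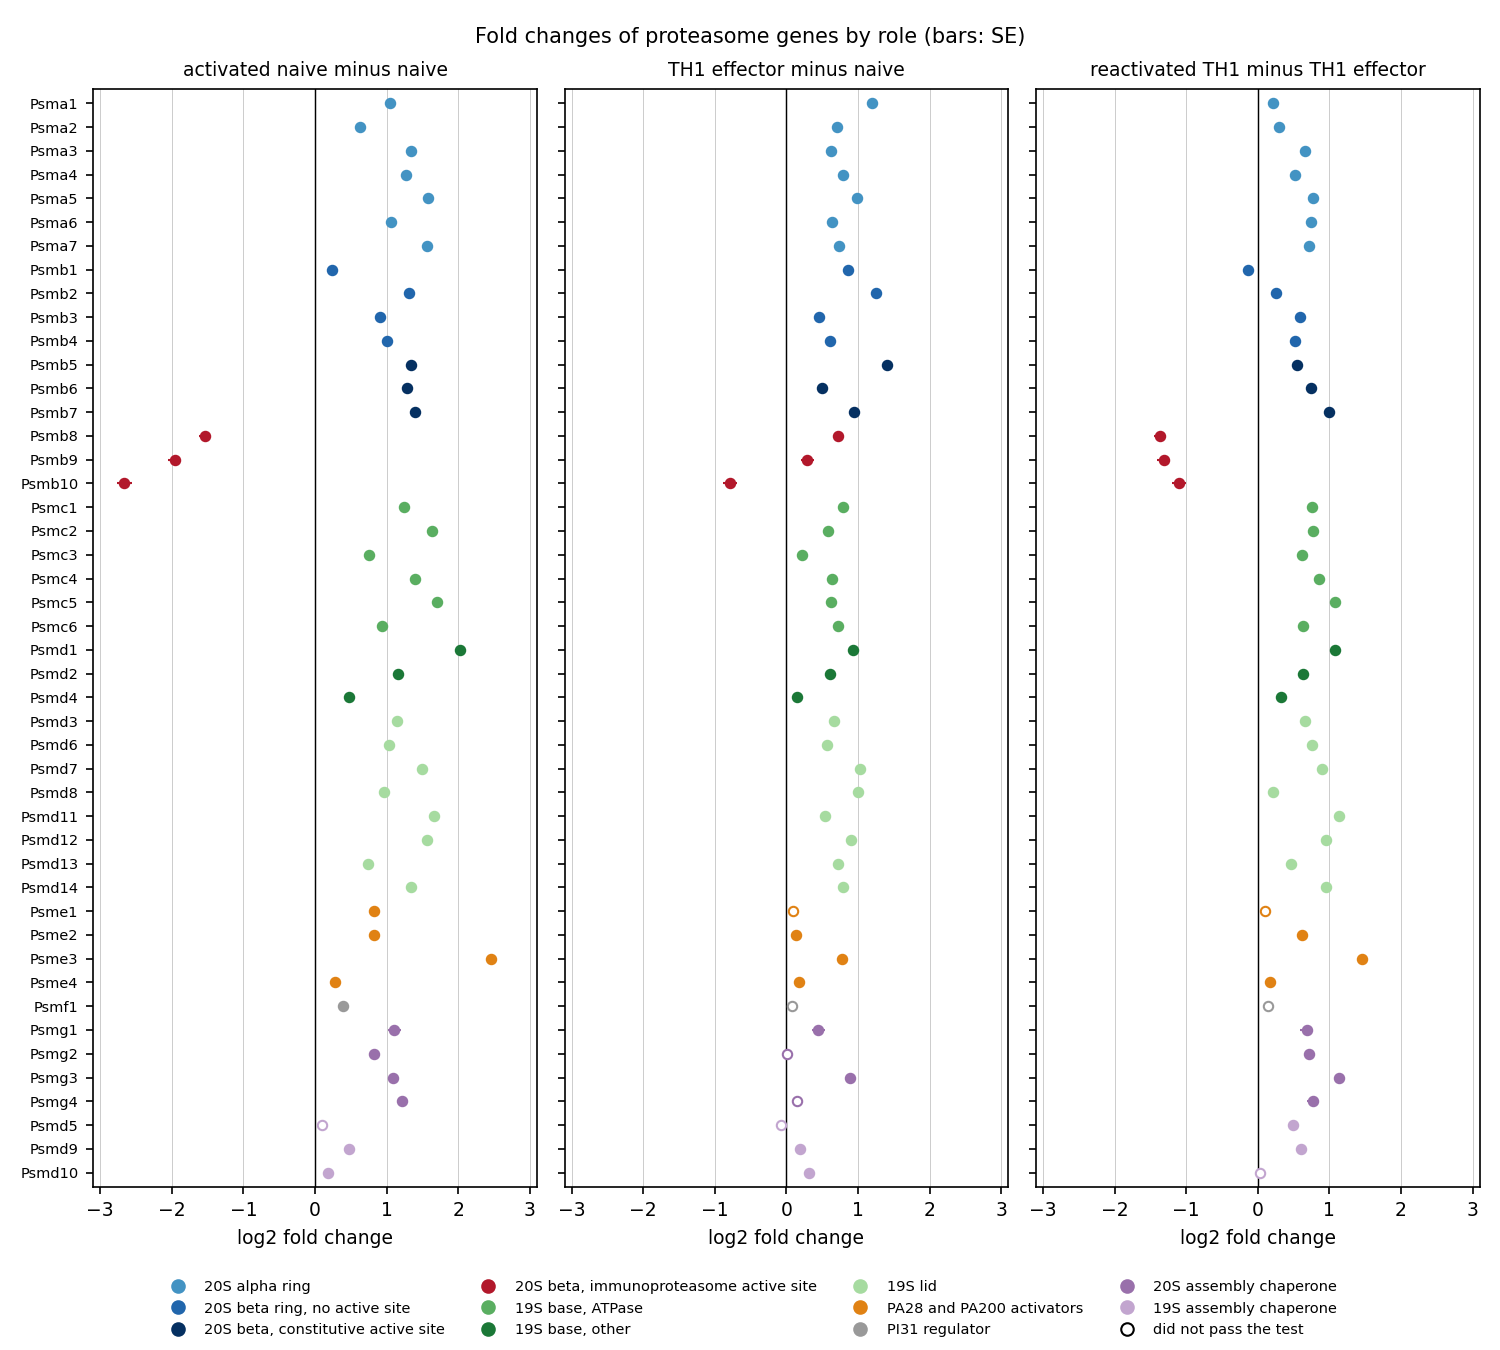
Log2 fold change of 46 tested members (all but Psma8, a gene of under 1 CPM) in 3 comparisons, ordered and coloured by role, with bars for the SE and open points where the test was not passed. The 3 immunoproteasome genes lie far left of 0 in the left and right panels, Psmb1 is the other gene that fell in the right panel, and in the middle panel only Psmb10 of the genes that passed lies left of 0.

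TH1 effector cells held more of most proteasome transcripts than naive cells, and here the immunoproteasome genes split. Of the 47 tested members 41 were higher and 1, Psmb10, was lower (40 and 1 of 46 without Psma8), where 44.6% and 40.3% of all genes passed in these directions. Among the 46, at least 1.5-fold changes were seen for 27 upwards and 1 downwards, against 33.5% and 26.9% of all genes, and the medians were 0.628 and 0.0565 (log2). In 32 of them all TH1 effector libraries lay above all naive ones, and in 1 below, against 36.8% and 32.1% of all genes. Psme1, Psmf1, Psmg2, Psmg4 and Psmd5 did not pass the test, with log2 fold changes between −0.07 and 0.15.

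Psmb8 was the highest of the 3 inducible genes in TH1 effector cells, also per kb of exon (336.6 CPM per kb, against 123.0 for Psmb9 and 63.43 for Psmb10). It ran from 449.4 over a median of 549.4 to 617.8 CPM there, above every naive library (1.65-fold, log2 0.72, SE 0.076, edgeR adjusted p = 1.19e-09). Psmb9, with 143.7, 170.6 and 181.7 CPM, overlapped the naive range (1.22-fold, log2 0.29, SE 0.090, adjusted p = 0.00226), and without numbers 5 and 6 of every group its call was lost (adjusted p = 0.109). Psmb10, with 67.73, 84.00 and 96.22 CPM, lay below every naive library (1.73-fold lower, log2 −0.79, SE 0.10, adjusted p = 1.42e-08). So the inducible subunits of the beta 5 and beta 2 sites differed from naive cells in opposite directions.

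Among the constitutive active sites Psmb5 differed most and Psmb6 least. Psmb5 reached 53.40, 62.82 and 65.99 CPM in TH1 effector libraries (2.65-fold above naive, log2 1.41, SE 0.065, edgeR adjusted p = 2.36e-16), the largest difference among members of at least 10 CPM. Psmb6 reached 79.90, 97.70 and 109.4 CPM (1.41-fold, log2 0.49, SE 0.052, adjusted p = 5.75e-09) and Psmb7 99.29, 103.8 and 110 CPM (1.92-fold, log2 0.94, SE 0.042, adjusted p = 1.06e-15). All 3 lay above every naive library. Psmb2, a beta subunit without an active site, was next (123.3, 126.1 and 142.7 CPM against 49.01, 54.68 and 59.89, log2 1.25, SE 0.047, adjusted p = 1.34e-17), and Psma1 of the alpha ring followed at 1.19. The alpha ring ranged from 0.62 (Psma3) upwards, the ATPases from 0.22 (Psmc3) to 0.79 (Psmc1), and the lid from 0.53 (Psmd11) to 1.025 (Psmd7). Psme3 was 1.70-fold higher (201, 223.9 and 229.7 CPM, log2 0.77, SE 0.035, adjusted p = 1.14e-14). Psme2 (205.3, 240.5 and 254.2 CPM) passed narrowly at log2 0.13 (SE 0.056, adjusted p = 0.034), and without number 2, 3, 5 or 6, with each left out alone, it did not. Psme1 (318.6, 368.8 and 388.5 CPM) did not pass (log2 0.09, SE 0.057, adjusted p = 0.179).

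Reactivation of TH1 cells again raised most members and lowered the 3 immunoproteasome genes. Of the 47 tested members 39 rose and 4 fell (Psmb1, Psmb8, Psmb9 and Psmb10), against 39.9% and 39.8% of all genes. At least 1.5-fold changes were seen for 28 upwards and 3 downwards, against 24.3% and 28.3%, and the medians were 0.628 over the 46 members without Psma8, whose fold change did not pass here, and −0.00227 over all genes (log2). In 35 genes all reactivated libraries lay above all TH1 effector ones, and in 4 all lay below, against 30% and 29.4% of all genes. Psma8, Psmd10, Psme1 and Psmf1 did not pass, although Psmf1 did with the replicate number as a block (log2 0.14, edgeR adjusted p = 0.0239).

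In reactivated TH1 libraries Psmb8 had 193.1, 209.6 and 228.6 CPM as lowest, median and highest value, a fall by 1.37 on the log2 scale (2.58-fold, SE 0.076, edgeR adjusted p = 7.09e-15). Psmb9 had 52.23, 70.29 and 78.54 CPM (log2 −1.31, 2.49-fold lower, SE 0.090, adjusted p = 2.03e-13) and Psmb10 34.31, 38.83 and 44.75 CPM (log2 −1.10, 2.15-fold lower, SE 0.10, adjusted p = 5.2e-11). All 3 lay below every TH1 effector library, and their falls were closer to each other in size than in naive cells. The constitutive partners rose. Psmb5 reached 79.14, 89.89 and 98.11 CPM (1.46-fold, log2 0.55, SE 0.065, adjusted p = 1.89e-08), Psmb6 144.9 to 176.5 CPM with a mean of 160.8 (1.67-fold, log2 0.74, SE 0.052, adjusted p = 2.91e-12), and Psmb7 181.1, 210.7 and 221.9 CPM (1.99-fold, log2 0.99, SE 0.042, adjusted p = 4.83e-16). For Psmb7, 405 bases of exon (34.9% of its exons) overlap Nek6, a kinase gene on the other strand, which averaged 0 CPM for naive, 2.049 for activated naive, 63.56 for TH1 effector and 204.7 CPM for reactivated TH1 libraries. As the strand setting of the counting is not given in the sources used here, the effect of this overlap on the TH1 values of Psmb7, upwards or downwards, was not tested.

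All 17 genes of the 19S regulator and all 4 chaperones of the core rose with them, and of the chaperones of the base Psmd5 (log2 0.50) and Psmd9 (0.60) did, while Psmd10 did not pass (0.03). Psme3 reached 577.3, 601.3 and 628.1 CPM (2.75-fold, log2 1.46, SE 0.035, edgeR adjusted p = 9.14e-20), again the largest rise. Psmg3, a chaperone of the alpha ring, followed with 31.64, 36.69 and 46.61 CPM against 13.65, 16.92 and 22.40 in TH1 effector libraries (2.20-fold, log2 1.14, SE 0.071, adjusted p = 4.15e-13). Psmg3 shares 26.8% of its exons on its own strand with Gm26938, which has no value here. The ATPases rose by 0.62 (Psmc3) to 1.07 (Psmc5), Psmd1 by 1.08 and the lid by 0.21 (Psmd8) to 1.14 (Psmd11). Psmb1 fell by 0.13 (187.6, 210.3 and 219.7 CPM against 219.7, 224.9 and 229.2, SE 0.030, adjusted p = 0.00292), the constitutive member with a fall. The highest reactivated library all but reached the lowest TH1 effector one, and the call was lost in the first run alone (adjusted p = 0.064) and without numbers 5 and 6 (0.0584). The PA28 genes parted. Psme2 rose to 337.8, 363.5 and 389.3 CPM (1.54-fold, log2 0.62, SE 0.056, adjusted p = 2.64e-10), while Psme1, at 367.6, 391.1 and 410.1 CPM, overlapped the TH1 effector range and did not pass (log2 0.10, SE 0.057, adjusted p = 0.104). Psme2 has a near-identical copy, Psme2b (99.37% identical over 794 bases), which has no value here. Reads of Psme2 may have been lost to it or set aside as not aligned uniquely, to an extent that is not known here.

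**Figure D3:**
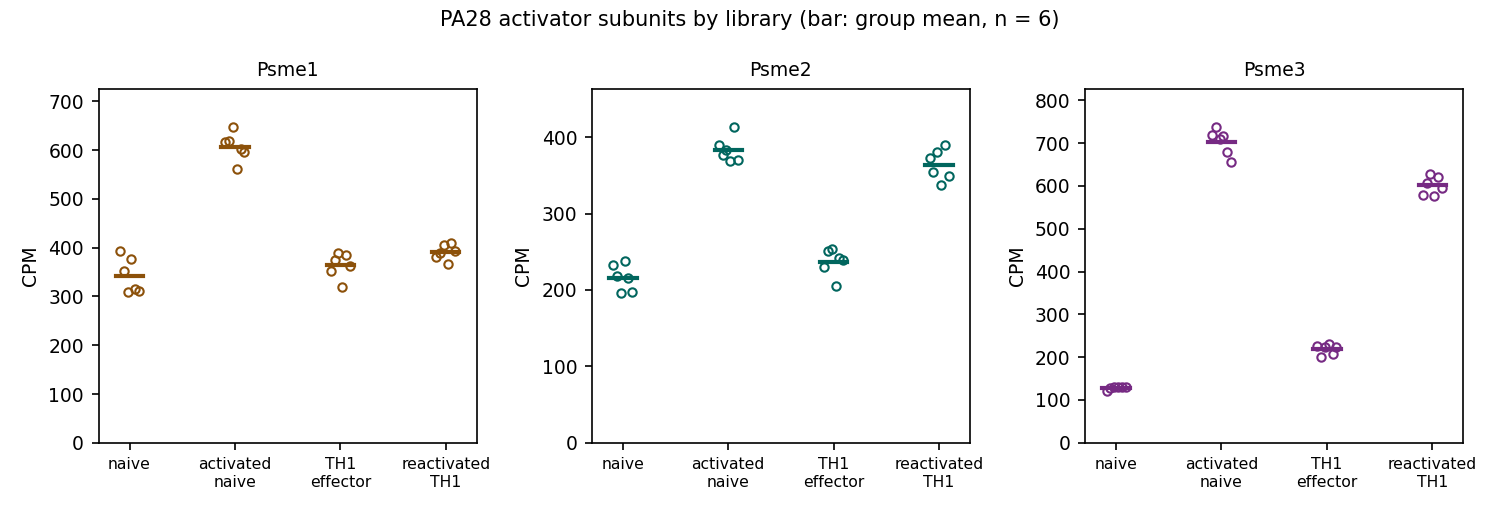
Level of the PA28 subunit genes Psme1, Psme2 and Psme3 in CPM by group, with 1 point per library and a bar at the mean of 6 libraries, each panel with its own axis from 0. Psme3 is high in both stimulated groups (656.2 to 737.9 and 577.3 to 628.1 CPM), Psme2 likewise on its own scale, and Psme1 is high in the activated naive group alone.

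Set beside each other, the stimulated groups differed less than either did from its resting group. In reactivated TH1 against activated naive libraries 28 of 47 members were higher and 6 lower (27 and 6 of 46 without Psma8), against 43.4% and 36.4% of all genes. Among the 46, at least 1.5-fold changes were seen for 5 upwards and 1 downwards (30.6% and 20.7% of all genes). The medians were 0.173 and 0.0787 (log2), and all libraries lay above in 19 genes and below in 2, against 33.7% and 26.5% of all genes. The 3 immunoproteasome genes were higher in reactivated TH1 cells, Psmb8 by 0.90 (SE 0.076, edgeR adjusted p = 3.05e-11), Psmb9 by 0.94 (SE 0.090, 2.03e-10) and Psmb10 by 0.77 (SE 0.10, 5.62e-08), without overlap of libraries. Of the constitutive sites Psmb5 (log2 0.61) and Psmb7 (0.53, with the Nek6 overlap above) were higher, and Psmb6 did not pass (−0.05, SE 0.052, adjusted p = 0.391). The largest differences among members of at least 10 CPM in the other direction were those of Psme1 (log2 −0.63, SE 0.057, adjusted p = 3.23e-10) and Psmg4 (21.18, 23.81 and 25.27 CPM against 25.03, 28.76 and 34.41, log2 −0.30, SE 0.076, adjusted p = 0.000992). Psmg3 was higher by 0.94 (SE 0.071, adjusted p = 1.83e-11). In the second run alone the count of higher members was 19, and it was 27 in the first.

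Most members changed by a larger fold in naive than in TH1 cells. With the naive response subtracted from the TH1 response, the difference was lower than 0 for 37 of 47 members and higher for 3 (Psmb9, Psmb10 and Psmd5), or 36 and 3 of 46 without Psma8, where 33.7% and 34.3% of all genes passed. Among the 46 it was so by at least 1.5-fold for 15 and 2 (22.7% and 23.8%). The median was −0.438 over the 46 members and −0.00387 over all genes (log2). Psmb2 differed by −1.06 (SE 0.066, edgeR adjusted p = 1.5e-12), Psme3 by −0.99 (SE 0.050, 2.7e-13), Psmd1 by −0.95 (SE 0.084, 2.95e-10), Psmb5 by −0.79 (SE 0.092, 3e-08), Psme1 by −0.72 (SE 0.081, 3.19e-08), Psmb6 by −0.54 (SE 0.073, 7.55e-07), Psmg4 by −0.45 (SE 0.11, 0.000979) and Psmb7 by −0.40 (SE 0.059, 7.34e-06). For a gene that rises, a value under 0 is a smaller fold rise in TH1 cells, which need not be a smaller rise in CPM. Psmb7, for example, averaged 54.38 CPM for naive and 142.9 for activated naive, and 104.2 for TH1 effector and 207.1 CPM for reactivated TH1 libraries. For the genes that fall a value over 0 is a fall by a smaller fold. Psmb10 differed by 1.56 (SE 0.14, adjusted p = 1.17e-10) and Psmb9 by 0.65 (SE 0.13, 3.08e-05), while Psmb8 did not pass (0.18, SE 0.11, adjusted p = 0.135), except without numbers 5 and 6 (0.0271). Psme2 passed narrowly (−0.21, SE 0.079, adjusted p = 0.025), and not without number 2, 3 or 6 alone.

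Most members that rose on activation also rose on reactivation. Of 43 members that rose in naive and 39 that rose in TH1 cells, 38 did so in both (88.4% and 97.4%), and the 3 that fell in naive cells were among the 4 that fell in TH1 cells (100% and 75%). Of all genes tested, 68.7% of those that rose in naive cells and 71.1% of those that rose in TH1 cells did so in both, and 66.2% and 67.4% of those that fell. These comparisons share no library, but they come from the same fit, and same-numbered libraries of the groups deviated together, so they are not independent. Psma8, Psmb1, Psmd10, Psme1 and Psmf1 rose in the naive response alone among these calls, and Psmd5 in the TH1 response alone. Across the 46 genes without Psma8 the log2 fold changes of the responses had a Pearson r of 0.92 and a Spearman rho of 0.824, and across the 43 genes that remain without the immunoproteasome genes both were 0.785. With Psma8 (47 genes) they were 0.767 and 0.726. Genes are not independent replicates, as all share the same libraries and scaling. In size the naive response was the larger in 44 of 47 genes, the others being Psmg3, Psmd5 and Psmd9.

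**Figure D4:**
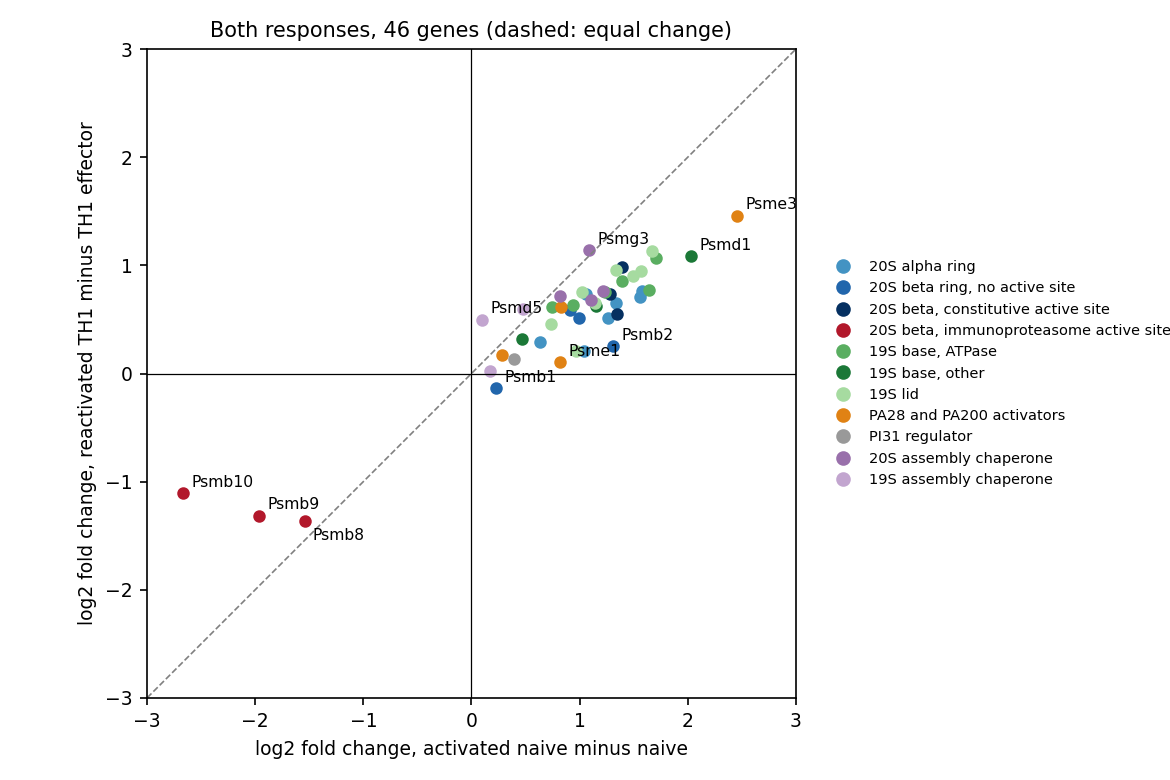
Log2 fold change on reactivation of TH1 cells (vertical) against that on activation of naive cells (horizontal) for 46 members without Psma8, coloured by role, with a dashed line where both are equal. Points lie below the line for most genes that rose, while Psmg3, Psmd5 and Psmd9 lie above it. Psmb8, Psmb9 and Psmb10 also lie above the line and stand apart in the lower left corner, where this means a fall by a smaller fold in TH1 cells.

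The exchange at the active sites was followed within each library as the ratio of counts of an inducible gene to its constitutive partner, which does not depend on library scaling. Exact two-sided permutation tests of 6 against 6 libraries were run for 3 pairs and 4 comparisons, with the Benjamini-Hochberg adjustment over the 12 tests, and p = 0.00216 is the smallest that 924 arrangements can give. On activation of naive cells the ratio fell by 2.89 on the log2 scale for Psmb8 to Psmb5 (SE 0.12), 3.25 for Psmb9 to Psmb6 (SE 0.14) and 4.07 for Psmb10 to Psmb7 (SE 0.11), and the libraries did not overlap (adjusted p = 0.00289 for each). Within the runs the differences were −3.13 and −2.66, −3.35 and −3.14, and −4.19 and −3.95 for these pairs. On reactivation of TH1 cells the ratio fell by 1.91 (SE 0.093), 2.06 (SE 0.16) and 2.08 (SE 0.14), in the same order and again without overlap (exact permutation tests, adjusted p = 0.00289 for each). Within the runs these were −2.04 and −1.78, −2.20 and −1.91, and −2.29 and −1.88. The overlap of Psmb7 with Nek6, given above, may affect the Psmb10 to Psmb7 ratio in both TH1 groups, and its effect was not tested.

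Between the resting groups the pairs differed. TH1 effector cells were lower than naive cells by 0.69 for Psmb8 to Psmb5 (SE 0.068, exact permutation test, adjusted p = 0.00289) although both of its genes were higher there, and by 1.74 for Psmb10 to Psmb7 (SE 0.10, adjusted p = 0.00289). Within the runs these were −0.75 and −0.64, and −1.71 and −1.76. The untested Nek6 overlap also applies to the Psmb10 to Psmb7 differences of this paragraph, as each sets TH1 libraries against naive or activated naive ones. For Psmb9 to Psmb6 the difference was −0.21 (SE 0.11, exact permutation test, adjusted p = 0.118, −0.24 and −0.18 within the runs) with overlapping libraries, and it passed without number 5 (adjusted p = 0.0286). Between the stimulated groups the Psmb9 to Psmb6 ratio was higher in reactivated TH1 cells by 0.99 (SE 0.18, exact permutation test, adjusted p = 0.00289, 0.92 and 1.05 within the runs). The other pairs did not pass there, Psmb8 to Psmb5 at 0.29 (SE 0.14, adjusted p = 0.0831, 0.33 and 0.24 within the runs) and Psmb10 to Psmb7 at 0.25 (SE 0.15, adjusted p = 0.134, 0.19 and 0.31 within the runs). The former passed with labels permuted within runs (adjusted p = 0.012), without number 6 (0.0476) and without numbers 5 and 6 (0.0343). With same-numbered libraries taken as pairs, a test added after the data were seen, it was higher in all 6 pairs and passed (exact test that flips signs within pairs, adjusted p = 0.0375). Psmb10 to Psmb7 was higher in 5 of 6 pairs and did not (adjusted p = 0.0682), and this pairing changed none of the other 10 calls.

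Levels of different genes were compared per kb of exon, the union of a gene's exons in GENCODE M21. Of the RNA of the Psmb8 and Psmb5 pair, Psmb8 made up 88.91% ± 0.75 for naive, 51.90% ± 4.73 for activated naive, 83.20% ± 1.21 for TH1 effector and 56.80% ± 3.24 for reactivated TH1 libraries (mean ± SD, n = 6, as for the next values). With the mean length of coding transcripts in place of the union of exons, chosen after the data were seen, these were 87.15%, 47.75%, 80.73% and 52.67%, so which of the pair was ahead in activated naive cells depends on the length used. Psmb9 made up 54.08% ± 3.11, 11.16% ± 1.94, 50.53% ± 3.69 and 19.93% ± 3.52 of its pair with Psmb6, in the same order of groups. Psmb10 made up 70.04% ± 1.22, 12.35% ± 1.997, 41.28% ± 3.88 and 14.31% ± 2.07 of its pair with Psmb7. By these counts, the beta 1 and beta 2 sites in stimulated cells had mostly constitutive transcripts and the beta 5 site a near balance. Psmb5 has a near-identical copy, Gm3375 (98.869% identical over 796 bases), which has no value here. Psmb5 also overlaps Mir686 on its own strand (12.1% of its exons). Reads of Psmb5 may have been lost in these ways, which would raise the share of Psmb8. The Nek6 overlap of Psmb7 may affect the share of Psmb10 in TH1 libraries. Neither effect was tested. Over the 3 pairs the immunoproteasome share was 72.40% ± 1.26, 22.28% ± 2.34, 65.19% ± 2.52 and 30.53% ± 3.13. These are shares of transcripts, and what the assembled cores hold was not measured.

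**Figure D5:**
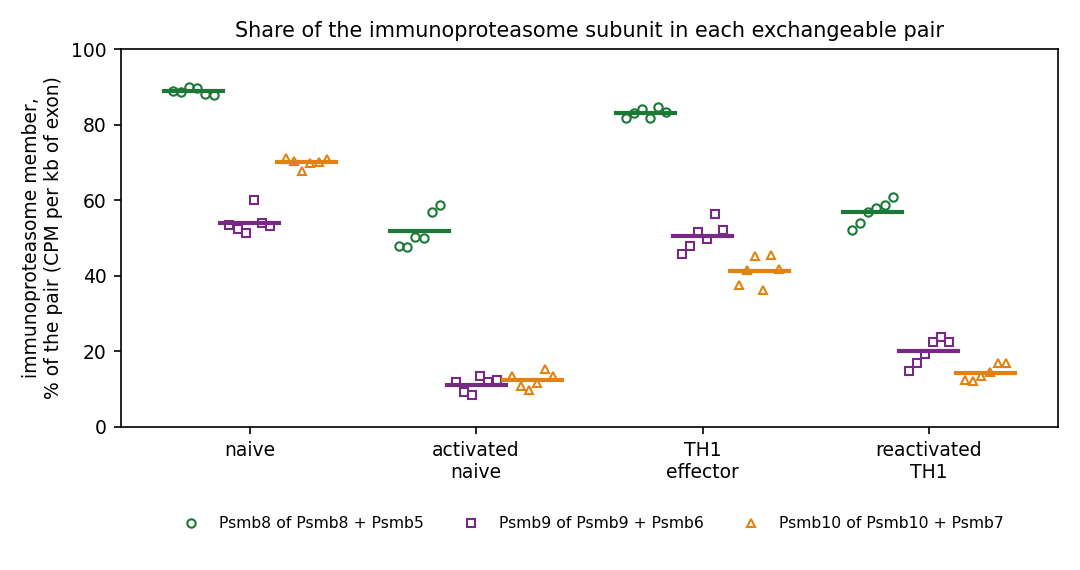
Share of the immunoproteasome member in each exchangeable pair, in percent of the pair's CPM per kb of exon, with 1 point per library and a bar at the mean of 6 libraries. Every share is lower in a stimulated group than in its resting group, and Psmb8 keeps a larger share than Psmb9 and Psmb10 in each group. The near-identical copy of Psmb5 and the Nek6 overlap of Psmb7 may affect these shares, to an extent that was not tested.

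Subunits that sit in the core in equal number did not have equal transcript levels. Across the 14 core genes without the immunoproteasome genes, the level per kb of exon spread 4.08-fold in naive cells, from 25.46 CPM per kb for Psmb5 to 104.0 for Psmb3. The spread was 5.32-fold in activated naive cells (Psmb1 at 42.27 to Psma7 at 224.8), 2.76-fold in TH1 effector cells (Psma3 at 54.57 to Psmb2 at 150.6) and 3.59-fold in reactivated TH1 cells (Psmb1 at 59.78 to Psmb3 at 214.9). The 17 genes of the 19S regulator spread 3.09-, 3.25-, 2.96- and 2.62-fold in the same order. These orders depend on the length. With the mean length of coding transcripts, Psmb5 was still the lowest core gene in naive cells (30.09 CPM per kb), but Psma2 was lowest in the other groups, at 68.49, 72.15 and 88.43. The core genes then spread 3.45-, 3.74-, 2.09- and 2.67-fold and the 19S genes 2.98-, 2.63-, 2.78- and 1.97-fold. Psma3, Psma5, Psmb3, Psmb5, Psmc1 and Psmd11 have near-identical copies elsewhere in the genome, so their counts are uncertain.

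Tissue forms of the core were rare. Psma8, the alpha subunit of spermatoproteasomes, had 2 counts over the 6 naive libraries, 21 over the activated naive, 107 over the TH1 effector and 73 over the reactivated TH1 libraries, or at most 0.628 CPM on average. Per total count it was 8.82 times the naive level in activated naive (95% counting interval 2.156 to 77.61), 45.3 times in TH1 effector (12.23 to 378.7) and 28.7 times in reactivated TH1 cells (7.663 to 241.4), which covers counting error only. It passed the filter on low counts through its TH1 libraries, so its calls are no evidence of how the other members moved. Psmb11, the thymus form of the beta 5 subunit and a neighbour of Psmb5 (3410 bases away), had 0, 1, 0 and 4 counts in naive, activated naive, TH1 effector and reactivated TH1 libraries, where 3 counts over a group equal 0.0171 to 0.0218 CPM. Psmc3ip, which is no part of the proteasome, averaged 4.086 CPM for naive, 5.494 for activated naive, 10.54 for TH1 effector and 17.04 CPM for reactivated TH1 libraries. It overlaps Mlx on the other strand over 29.8% of its exons.

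Most proteasome partners outside the Psm symbols rose with the constitutive members on activation and on reactivation. Of 19 tested partners 17 rose and 2 fell on activation of naive cells, 10 were higher and 4 lower in TH1 effector than naive cells, and 17 rose and 0 fell on reactivation. Of all genes 41.3% and 40.5%, 44.6% and 40.3%, and 39.9% and 39.8% passed in these directions. Between the resting groups the count of higher partners thus lay near the share of all genes (median log2 fold change 0.289). Pomp, the maturation factor of new cores, averaged 50.28 CPM for naive, 188.5 for activated naive, 118.8 for TH1 effector and 165.9 CPM for reactivated TH1 libraries, with log2 rises of 1.90 (SE 0.032, edgeR adjusted p = 2.9e-23) and 0.48 (SE 0.032, 3.59e-11). Adrm1, a ubiquitin receptor, rose by 1.25 and 0.83, and Usp14, an enzyme that trims ubiquitin, by 1.25 and 0.80 in the same comparisons. Among 10 tested regulators of proteasome genes 4 rose and 5 fell on activation, and 6 rose and 3 fell on reactivation, not far from these shares of all genes on activation. Nfe2l1, which encodes NRF1, a factor known to raise proteasome genes when proteasomes are short, averaged 97.57, 219.7, 139 and 230.8 CPM (naive, activated naive, TH1 effector, reactivated TH1), with rises of 1.17 (SE 0.065, adjusted p = 5.44e-15) and 0.73 (SE 0.065, 1.13e-10). Nfe2l2, which encodes the related NRF2, went the other way (111.7, 43.05, 59.99 and 38.13 CPM, log2 −1.38 and −0.60). The call of its fall on reactivation was lost in the first run alone and without numbers 5 and 6. Of 6 ubiquitin genes 5 rose and 1 fell on activation, and 1 rose and 2 fell on reactivation.

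Genes that interferon gamma induces are given beside the immunoproteasome genes. Irf1, a transcription factor, averaged 500.7, 307.1, 362.9 and 169.6 CPM in the order of groups above (log2 −0.70 on activation and −1.10 on reactivation), and Nlrc5, the activator of MHC class I genes, 623.9, 355.2, 516.4 and 233.3 CPM (−0.82 and −1.16). Both fell in both comparisons, with edgeR adjusted p-values between 4.84e-11 and 0.000114. Tap1, the peptide transporter gene whose exons overlap those of Psmb9 on the other strand over 212 bases (15.7% of the exons of Psmb9), averaged 484.3, 225.4, 361.5 and 319.4 CPM. It fell by 1.11 on activation and did not pass on reactivation (log2 −0.18, SE 0.099, adjusted p = 0.0677), where Psmb9 fell. Its call on reactivation depended on the setting, since it passed as a fall in 7 of the 16 alternative fits (lowest adjusted p = 0.00507, in the first run alone). Of 14 GTPase genes induced by interferon gamma 0 rose and 12 fell on activation, and 1 rose and 13 fell on reactivation. Of 15 genes of the MHC class I pathway 4 rose and 9 fell, and 4 rose and 7 fell. Of all genes 40.5% fell on activation and 39.8% on reactivation, so the share of the MHC class I genes on reactivation lay near that of all genes. A wider interferon list did not follow. Of its 32 tested genes 0 rose and 27 fell on activation, but 21 rose and 2 fell on reactivation. Its summed level in activated naive libraries was 2797 and 2410 CPM in numbers 5 and 6, against 676.5 to 913.1 in numbers 1 to 4. It was 1438 and 1265 against 863 to 1142 in TH1 effector and 3092 and 2646 against 1135 to 2048 in reactivated TH1 libraries. In naive libraries it was 3213 and 3502 against 3487 to 4296. The GTPase genes also summed higher in numbers 5 and 6 of all groups but naive, where number 4 was highest (6163 CPM). Psmb8 was also highest in numbers 5 and 6 of the activated naive group, at 128.7 and 126.4 CPM against 97.53 to 112.6 in numbers 1 to 4. The other inducible genes did not follow as clearly. Within its pair per kb of exon, Psmb9 had its highest share there in number 4 (13.37%), with 11.86% and 12.3% in numbers 5 and 6. The share of Psmb10 was 15.21% and 13.4% in numbers 5 and 6, against 13.41% in number 1. The part of these signals in the changes of the immunoproteasome genes was not tested.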

How the data were processed

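RNA was sequenced from 24 libraries, 4 groups of 6, prepared with a stranded kit per the labels' protocols. The deposited tables hold raw counts of reads per gene symbol. STAR, HTSeq, DESeq2 and mm10 are named in the submitters' processing notes; their settings, the annotation and the strand setting are not given there or in the labels. Groups came from the labels and the sequencing run from the flow cell part of the deposited names. Lines that name no gene were left out of library sizes: reads without a feature were 15.6% to 23.1% and reads not aligned uniquely 5.92% to 7.53% of a group's lines on average.

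Counts were filtered with filterByExpr (12584 genes kept), scaled with TMM and tested with edgeR 4.0.16 in R 4.3.3 (robust quasi-likelihood fit of all 24 libraries with group and run, Benjamini-Hochberg adjustment over all genes tested, threshold 0.05). The response difference is the contrast of both fold changes. SEs came from an ordinary linear model with the same terms on log2 CPM (prior count 2), with each gene's own residual variance. Data were simulated from naive mean levels in all libraries, with changes in the activated naive group alone. All of 100 genes changed by 1 on the log2 scale and 83% of 100 changed by 0.5 were recovered. There were 9 false calls among 11125 genes. The simulation had few changed genes and no run or pairing effect, whereas 81.9% of all genes passed between these groups in the data. It therefore does not measure scaling or error rates in these data. Pair ratios were log2 ratios of counts (0.5 added), tested exactly. Lengths, overlaps and positions came from GENCODE M21 (GRCm38), and promoters from RefSeq (GRCm38.p6). Copies were sequences of at least 97% identity over at least 100 bases.

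Same-numbered libraries of different groups deviated together: every correlation of deviations from the group means was at least 0.106, and 35 of 36 were over 0.1 after the run was removed. By this check the numbers pair libraries, though the labels do not say what they mark. The reported fits and ratio tests hold no replicate term. Fits with a replicate block, and a paired ratio test added after the data were seen, are alternatives, given beside a result where they change its call. Alternatives were library-size and DESeq2 (1.42.0) normalization, other filters, a replicate block, single runs, a minimum change and leaving out libraries. Given in full were the 6 exchangeable active-site genes, Psme1, Psme2, Psme3 and, per comparison, the 2 members with the largest rise and fall of at least 10 CPM; other genes were chosen after their values were seen. The members and lists were chosen with earlier results of these data known.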

Additional observations from a re-analysis of the deposited data

Results flagged for a closer look

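Single libraries stood apart from the other 5 of their group in 4 of 72 groups checked, where chance flags about 1 in 20. Naive number 3 had 120.3 CPM of Psmb10 (the others 143.5 to 153.9) and a Psmb10 share of 67.74% in its pair with Psmb7 (69.98% to 71.22%). Naive number 1 had 120.9 CPM of Psme3 (128.8 to 130.9), and naive number 4 had a Psmb9 share of 60.18% in its pair with Psmb6 (51.42% to 53.9%).

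The change on stimulation differed between TH1 and naive cells for 11 of the 13 members described in full (edgeR, difference of log2 fold changes, TH1 minus naive). It was above 0 for Psmb10 (1.56) and Psmb9 (0.65), which fell by a smaller fold in TH1 cells. It was below 0 for Psmb2 (−1.06), Psme3 (−0.99), Psmd1 (−0.95), Psmb5 (−0.79), Psme1 (−0.72), Psmb6 (−0.54), Psmg4 (−0.45), Psmb7 (−0.40) and Psme2 (−0.21), which rose by a smaller fold there or, for Psme1, did not pass there.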

How the results depend on the processing

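No gene value that passed in the main or the alternative fit changed its sign in the 16 alternative fits. Of 4555 gene values under them, 4269 kept their call, 253 lost it (124 of these in the test against a minimum change and 129 in the others) and 33 gained it. Tested against a change of 1.5-fold, 22 members were higher in TH1 effector than naive cells and 19 rose on reactivation. In the same test 5 members were higher and 0 lower in reactivated TH1 than activated naive cells, and the response difference was above 0 for 1 and below 0 for 12. Without numbers 5 and 6 it was above 0 for 5. With the replicate block the counts were 43 and 3, 41 and 1, 40 and 4, 27 and 6, and 3 and 37 in the order of the report, with Psmf1 gained on reactivation (edgeR adjusted p = 0.0239) and Psmc4 lost between the stimulated groups (0.0562). The log2 ratio of Psmb8 to Psmb5 between the stimulated groups was 0.2854 and passed with labels permuted within runs (exact permutation test, adjusted p = 0.012) and with same-numbered libraries as pairs (0.0375), and was 0.3658 without numbers 5 and 6 (0.0343). With 1 number left out it ran from 0.2494 to 0.3195, and the ratio of Psmb9 to Psmb6 between the resting groups from −0.2755 to −0.1244. The cause of these moves was not tested. Scaling by library size alone moved the median of all genes by −0.142 on activation and −0.122 on reactivation. Genes under 1 CPM are limited by depth.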
